A study of Mus musculus with 30 samples.

Results

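The effect of losing Mif was measured in F4/80-sorted cells from the bone marrow of leukaemic Eµ-TCL1 mice. The comparison set the 6 arrays titled KO-l-BM (Mif knockout, leukaemic, bone marrow) against the 5 arrays titled WT-l-BM (the same with intact Mif), 11 of the 30 arrays of the series, over all 11937 genes that were detected well enough to be tested. The question was which genes, beside Mif itself, differ in these cells when the mouse lacks the cytokine.

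KO-l-BM cells came from mice of genotype TCL1+/wt Mif-/- and WT-l-BM cells from TCL1+/wt Mif+/+ mice. Both groups are labelled C57BL/6, 2 to 5 months old and leukaemic, and every mouse of the series carries the TCL1 transgene, which puts the human TCL1 oncogene in B cells and gives a disease like chronic lymphocytic leukaemia. The other groups used below are non-leukaemic marrow (KO-nl-BM and WT-nl-BM, 3 arrays each), leukaemic spleen (KO-l-SP with 4 arrays and WT-l-SP with 3) and non-leukaemic spleen (KO-nl-SP and WT-nl-SP, 3 each). The non-leukaemic mice are labelled 10 to 15 months old, so age and leukaemia cannot be told apart between those groups. Mif is absent from the whole animal in the knockout, so leukaemic cells and macrophages lacked it alike. Which arrays came from the same mouse is not labelled, and p-values therefore measure the spread between arrays, which may be partly technical. Each array measured a bulk of sorted cells, in which fewer cells of a type and less RNA per cell cannot be told apart.

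Mif, macrophage migration inhibitory factor, is a small cytokine that many cell types store and secrete. It binds Cd74, the invariant chain, at the cell surface together with Cd44, and it also engages the chemokine receptors Cxcr2 and Cxcr4. In macrophages it is known for sustaining inflammatory signalling and survival, and it was named for holding macrophages in place.

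The sorted cells expressed the gene of the sorting marker. Adgre1, which encodes F4/80, ranged between 9.10 and 10.25 on the KO-l-BM arrays (median 9.36), on the scale of normalised log2 intensity that is used throughout, against 8.36 to 10.75 on the WT-l-BM arrays. Its difference, KO-l-BM minus WT-l-BM, was -0.15 ± 0.41 (SE), and turned to 0.02 under 75th percentile scaling; it ran from -0.47 to 0.13 with single arrays left out and was -0.55 on the slide that held 3 arrays per group. Csf1r, the receptor for macrophage growth factor, was detected on all 11 arrays. The 20 measured macrophage identity genes had a median difference of 0.00, or -0.22 on that slide, with 5 higher and 15 lower. Markers of other marrow cells were present as well: Mpo and Elane of neutrophil precursors, Prg2 and Epx of eosinophils and Alas2 and Klf1 of red cell precursors were detected on every array of both groups. The B cell gene Ms4a1 was detected on 4 of 6 KO-l-BM and 1 of 5 WT-l-BM arrays and the NK cell gene Ncr1 on 1 of 6 and 0 of 5. The T cell gene Cd3e was detected on 6 of 6 KO-l-BM and 2 of 5 WT-l-BM arrays. The difference of Cd3e was nonetheless negative with any single array left out, from -0.74 to -0.0062.

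Some arrays stood apart from their group. WT-l-BM replicate 1 had the main Casp9 probe at 4.28, undetected. The other 4 WT-l-BM arrays lay between 8.58 and 8.69 and the 6 KO-l-BM arrays between 8.25 and 8.96. All 3 WT-nl-BM and all 3 WT-nl-SP arrays were also undetected for this probe, and 2 of 3 WT-l-SP arrays detected it. Over the series 16 of 16 knockout and 6 of 14 wild-type arrays detected it, so its absence was not particular to non-leukaemic marrow. Another Casp9 probe did not separate WT-l-BM replicate 1, at 5.46 against 5.46 to 6.13 on the other WT-l-BM arrays. Across the tested genes WT-l-BM replicate 1 correlated best with a WT-nl-BM array (r = 0.988). KO-l-BM replicates 2 and 3 likewise correlated best with a KO-nl-BM array (r = 0.987 and 0.991). Of the 11 arrays only KO-l-BM replicates 4 and 6 and WT-l-BM replicate 3 correlated best with their own group. A best match outside the group therefore did not set an array apart. WT-l-BM replicate 3 was low in neutrophil and cell cycle genes, and WT-l-BM replicate 4 high in B cell genes, as given below. Xist, expressed from the inactive X of females, was high on 1 of 6 KO-l-BM and 3 of 5 WT-l-BM arrays, so the sexes were not balanced. The arrays lay on 5 slides, of which 1 held 3 arrays of each group (KO-l-BM replicates 4 to 6 and WT-l-BM replicates 3 to 5) and another held KO-l-BM replicate 2 with WT-l-BM replicate 1. Each of the 11 arrays detected 16492 to 18169 of 45281 probes.

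Mif itself separated the groups completely. It measured 4.47, 4.14, 4.33, 4.41, 4.31 and 4.24 on KO-l-BM replicates 1 to 6, against 11.65, 12.10, 10.70, 11.52 and 11.10 on WT-l-BM replicates 1 to 5. Every knockout value was near the background of the arrays, where 1 of 6 arrays just passed detection, and every wild-type value was high. The log2 difference was -7.09 ± 0.27 (SE), with an adjusted p of 2.51e-15 in the limma fit. A second Mif probe gave 4.18 ± 0.03 (SD, n = 6) in KO-l-BM cells and 6.51 ± 0.45 (SD, n = 5) in WT-l-BM cells.

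Beside Mif, 4 genes passed the threshold of an adjusted p under 0.05, so that 5 genes were called, or 0.0419% of those tested. Of these, 2 rose in KO-l-BM cells (0.0168%) and 3 fell (0.0251%). At an unadjusted p under 0.05 there were 346 genes (2.9%), 172 of them higher in KO-l-BM cells and 174 lower. This is a smaller share than the 0.05 that such a threshold passes when no gene differs. The 4 genes were 1190007I07Rik and Mtss1, which fell, and Atrnl1 and Manbal, which rose.

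1190007I07Rik, on chromosome 10 like Mif, fell in KO-l-BM cells. It measured 4.19, 4.16, 4.21, 4.39, 4.41 and 4.37 on KO-l-BM replicates 1 to 6, against 5.64, 5.17, 6.03, 5.84 and 6.16 on WT-l-BM replicates 1 to 5. The gene was detected on 1 of 6 KO-l-BM arrays and on all 5 WT-l-BM arrays, and the groups did not overlap. The difference was -1.48 ± 0.14 (SE; adjusted p = 1e-06, limma). Between this gene and Mif lie 131 other tested genes.

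Atrnl1 (attractin-like 1), a membrane protein gene on chromosome 19, rose. It measured 5.19, 5.27, 5.26, 5.78, 5.37 and 5.78 on KO-l-BM replicates 1 to 6, against 4.19, 4.12, 4.13, 4.13 and 4.14 on WT-l-BM replicates 1 to 5. All KO-l-BM arrays and no WT-l-BM array detected it. Since the wild-type level is only bounded, Atrnl1 was at least 2.02-fold higher in KO-l-BM cells, where the bound uses the lowest detected signal of each wild-type array (adjusted p = 1.53e-05, limma).

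Mtss1 on chromosome 15, which encodes a protein that binds actin and curved membranes, fell. It measured 4.68, 4.45, 4.53, 4.40, 4.28 and 4.31 on KO-l-BM replicates 1 to 6, against 5.76, 4.80, 5.94, 5.54 and 5.27 on WT-l-BM replicates 1 to 5. The groups came within 0.12 of each other, between KO-l-BM replicate 1 and WT-l-BM replicate 2. The difference was -1.02 ± 0.19 (SE; adjusted p = 0.0312, limma). Mtss1 was detected on 3 of 6 KO-l-BM and all 5 WT-l-BM arrays, so its knockout level lay near the background and the size is uncertain. Without background correction the difference was -0.30 (adjusted p = 0.0674, limma).

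Manbal, on chromosome 2, rose. It measured 9.10, 8.48, 8.38, 7.94, 7.83 and 7.87 on KO-l-BM replicates 1 to 6, against 5.96, 7.67, 6.51, 5.77 and 6.70 on WT-l-BM replicates 1 to 5. WT-l-BM replicate 2 lay 0.16 below the lowest KO-l-BM array and more than that above the other wild-type arrays. The difference was 1.74 ± 0.32 (SE; adjusted p = 0.0312, limma).

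**Figure D1:**
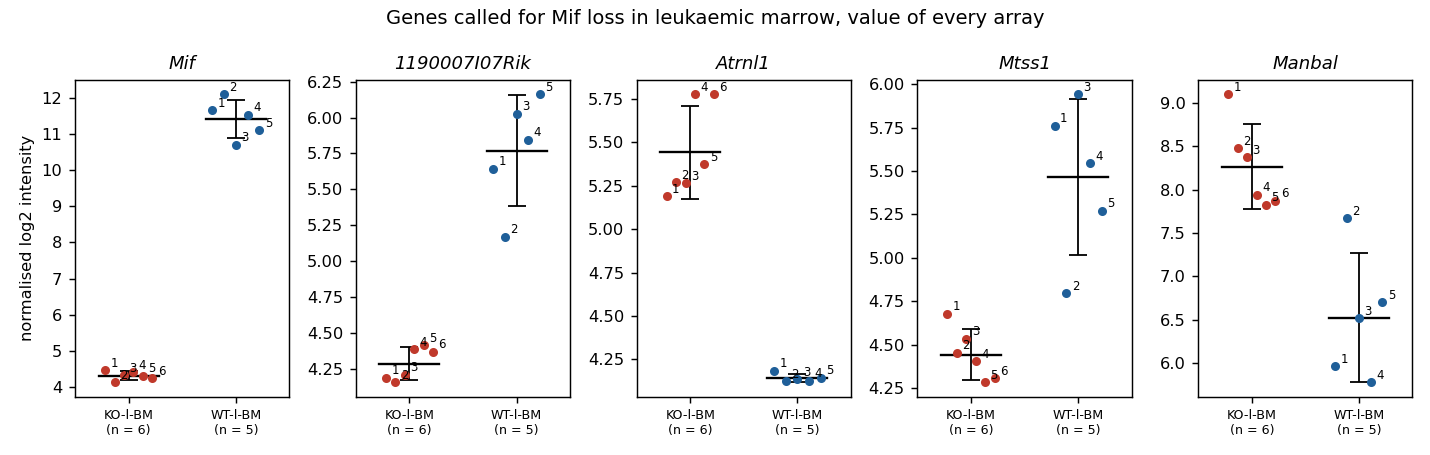
Normalised log2 intensity of the 5 called genes (vertical axes, 1 scale per gene) on each KO-l-BM array (red, left) and each WT-l-BM array (blue, right); digits are replicate numbers, horizontal lines means and bars SD. In none of the 5 genes do the groups overlap, and the gaps are widest for Mif, where KO-l-BM arrays reach 4.47 and WT-l-BM arrays start at 10.70, and narrowest for Mtss1.

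The calls of Mif and 1190007I07Rik held within the slide that carried 3 arrays of each group, where the differences were -6.78 (adjusted p = 0.000909, limma) and -1.62 (adjusted p = 0.0264). There Atrnl1 differed by 1.51 (adjusted p = 0.0799), Mtss1 by -1.25 (adjusted p = 0.221) and Manbal by 1.55 (adjusted p = 0.229), so none of these was called, while their sizes stayed close to those over all arrays. Il6st, the shared signalling subunit of the interleukin 6 receptor family, a gene picked with its values known, was called within that slide at -2.42 (adjusted p = 0.00637). It measured 4.36, 6.01, 4.59, 4.56, 4.23 and 4.33 on KO-l-BM replicates 1 to 6, against 4.42, 5.65, 6.84, 6.69 and 6.84 on WT-l-BM replicates 1 to 5. KO-l-BM replicate 2 and WT-l-BM replicate 1, the pair on another slide, ran the other way, and over all arrays Il6st was not called (adjusted p = 1).

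Leaving out WT-l-BM replicate 1 changed the number of calls to 8. Mif, 1190007I07Rik and Atrnl1 were called with and without it. Mtss1 (adjusted p = 0.0953) and Manbal (adjusted p = 0.0953) were not, and Pisd-ps3, Pisd-ps1, Parp8, Il6st and Ccdc117 came in. The count was 3, with Mtss1 and Manbal lost, without any of KO-l-BM replicates 2, 3 and 4 or WT-l-BM replicates 3, 4 and 5. A fit that also held each array's Xist level called 7 genes, Manbal not among them (adjusted p = 0.101).

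The 5 called genes had the same sign of difference in the 3 other settings in which Mif knockout and wild type can be compared. None of these settings shares an array with leukaemic marrow, but whether leukaemic spleen arrays came from the same mice is not labelled. Xist was detected on 3 of 3 WT-l-SP and 0 of 4 KO-l-SP arrays, so sex and genotype cannot be told apart in leukaemic spleen. In non-leukaemic spleen Xist was detected on 1 of 3 WT-nl-SP and 0 of 3 KO-nl-SP arrays, and in non-leukaemic marrow on none. 1190007I07Rik was not detected on any knockout array of these settings, so that its folds are bounds: for non-leukaemic marrow at least 2.46-fold lower in knockout cells, for leukaemic spleen at least 3.00-fold and for non-leukaemic spleen at least 2.64-fold. It was called in each of them (adjusted p = 0.00135, 1.68e-06 and 5.59e-05, limma). On none of the 14 wild-type arrays of the series was Atrnl1 detected, and on 15 of the 16 knockout arrays it was; for non-leukaemic marrow the bound was at least 1.44-fold higher in knockout cells (adjusted p = 0.131), for leukaemic spleen at least 1.15-fold (adjusted p = 0.922) and for non-leukaemic spleen at least 1.94-fold, and it was called in the last of these (adjusted p = 0.00332). Manbal spanned 7.59 to 9.10 on the 16 knockout arrays and 5.77 to 7.67 on the 14 wild-type arrays, but outside leukaemic marrow it was not called, with an adjusted p of 0.547, 0.19 and 0.0833. Mtss1, undetected on the KO-nl-BM arrays, was at least 1.62-fold lower there than in WT-nl-BM cells, and had differences of -0.45 in leukaemic spleen and -0.18 in non-leukaemic spleen, none called. The number of called genes was 9 in non-leukaemic marrow (0.0754%), 5 in leukaemic spleen (0.0419%) and 32 in non-leukaemic spleen (0.268%).

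**Figure D2:**
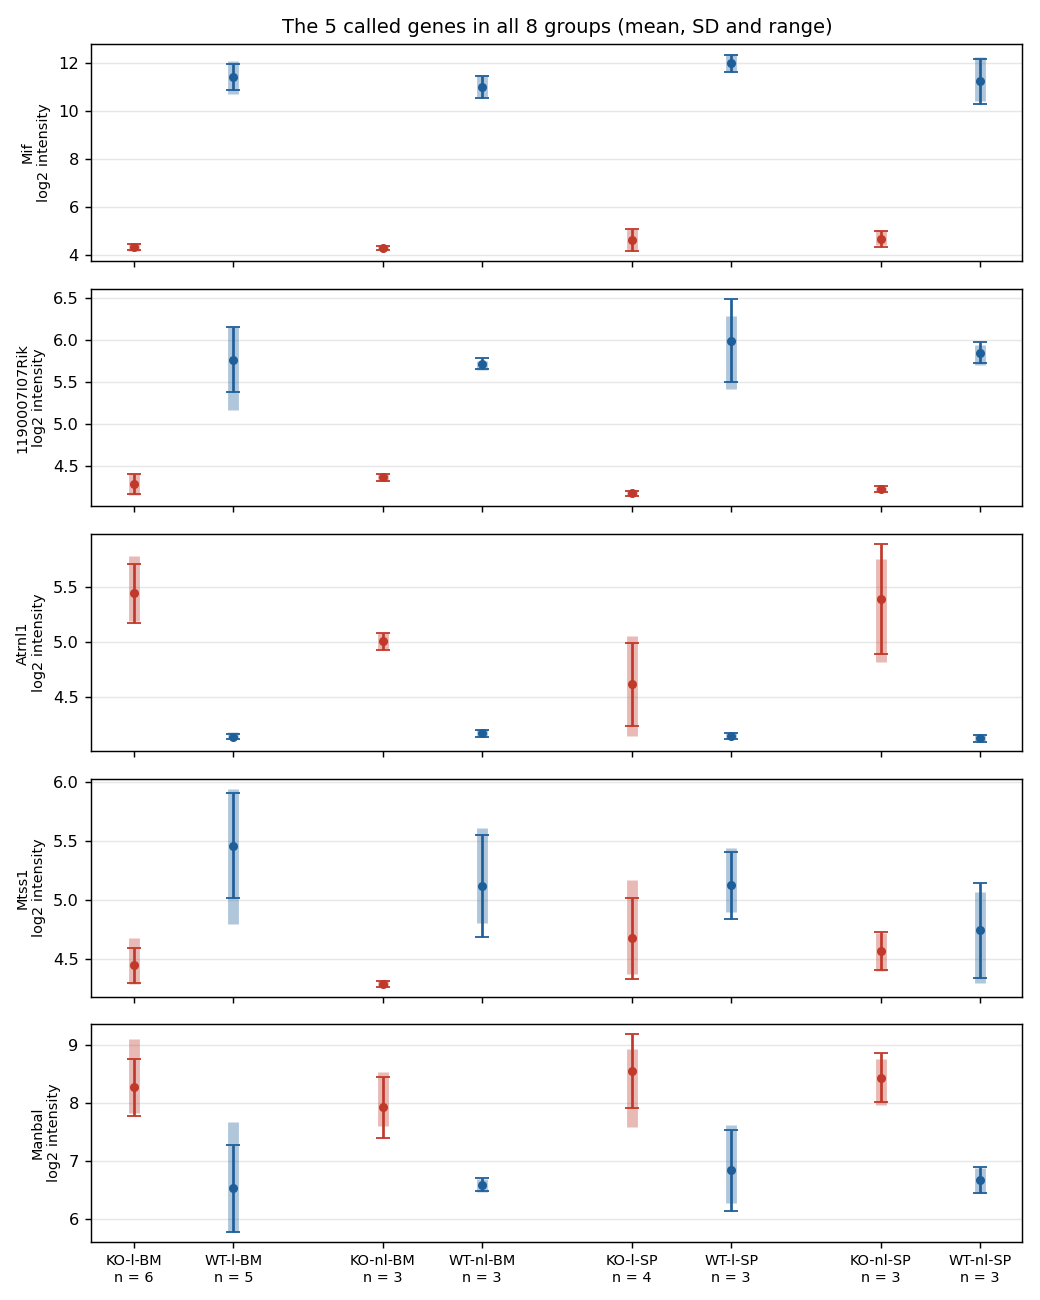
Normalised log2 intensity of the 5 called genes in the 8 groups of the series, knockout (red) left of its wild type (blue) in each pair; points are means, error bars SD and pale bars the range over arrays, with n under each group. All 5 genes keep the direction of the leukaemic marrow pair in every pair; the ranges overlap in leukaemic spleen for Atrnl1, Manbal and Mtss1 and in non-leukaemic spleen for Mtss1.

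Whether an effect of Mif loss in leukaemic marrow differed from the effect elsewhere was tested directly. No gene was called for a difference from the effect in non-leukaemic marrow (limma, 0% of genes; 400 genes, or 3.35%, at an unadjusted p under 0.05), and none for a difference from leukaemic spleen (0%; 501 genes, or 4.2%). Without WT-l-BM replicate 1, 5 genes were called for a difference from non-leukaemic marrow: Rnase2a and Paip1 with higher differences in leukaemic marrow, and Casp9, Supt16 and Gpn2 with lower ones. With this array in place, Casp9 averaged 8.57 ± 0.31 (SD, n = 6) in KO-l-BM and 7.75 ± 1.94 (SD, n = 5) in WT-l-BM cells, against 8.76 ± 0.19 (SD, n = 3) in KO-nl-BM and 4.25 ± 0.09 (SD, n = 3) in WT-nl-BM cells.

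Among genes that were not called, Pisd-ps3 came nearest to the threshold. It measured 5.51, 5.75, 5.78, 6.00, 5.12 and 6.04 on KO-l-BM replicates 1 to 6, against 6.35, 7.14, 8.82, 7.29 and 7.56 on WT-l-BM replicates 1 to 5. The groups did not overlap, and the difference was -1.73 ± 0.34 (SE; adjusted p = 0.0604, limma). Pisd-ps1 was lower by a log2 difference of -0.98 ± 0.21 (adjusted p = 0.18), also without overlap. Both are pseudogene copies of Pisd, the mitochondrial enzyme that makes phosphatidylethanolamine, and a probe may bind near-identical copies, so the source of these signals is uncertain. A second Pisd-ps3 probe gave 5.13 ± 0.18 (SD, n = 6) in KO-l-BM and 5.22 ± 0.44 (SD, n = 5) in WT-l-BM cells. In non-leukaemic marrow the difference of Pisd-ps3 was 0.14 and in leukaemic spleen 0.04.

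The next lower genes include a pair that encode parts of complexes for vesicle traffic and one of the poly-ADP-ribose polymerase family. Trappc12 was lower by a log2 difference of -1.04 ± 0.24 (adjusted p = 0.225), with 4.34 to 5.42 on KO-l-BM and 5.82 to 6.65 on WT-l-BM arrays. Of 4 other tested Trappc12 probes, 3 had positive differences, of 0.74, 0.11 and 0.07, and 1 a difference of -0.03, so the probes disagree; that of 0.74 averaged 5.23 ± 0.28 (SD, n = 6) in KO-l-BM and 4.49 ± 0.21 (SD, n = 5) in WT-l-BM cells. Trappc2l was lower by a difference of -0.55 ± 0.12 (adjusted p = 0.225), and it was called in leukaemic spleen at -0.98 (adjusted p = 0.00701) and in non-leukaemic marrow at -0.91 (adjusted p = 0.0302). Parp8 measured 5.74, 5.65, 6.23, 6.00, 6.06 and 6.47 on KO-l-BM replicates 1 to 6, against 6.03, 7.54, 8.50, 7.73 and 7.37 on WT-l-BM replicates 1 to 5. WT-l-BM replicate 1 alone lay within the knockout range of Parp8, and the difference was -1.41 ± 0.32 (adjusted p = 0.225). Gdf3, a ligand of the transforming growth factor beta family, was lower by a difference of -1.12 ± 0.31, Safb2 by -0.55 ± 0.17 without overlap, and Fam204a by -0.32 ± 0.10, each with an adjusted p of 1.

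On the higher side the smallest p belonged to Serpinf1, which encodes the secreted factor PEDF. It measured 8.73, 7.61, 8.98, 8.85, 9.30 and 9.58 on KO-l-BM replicates 1 to 6, against 7.50, 7.77, 6.41, 6.04 and 7.48 on WT-l-BM replicates 1 to 5. KO-l-BM replicate 2 alone lay within the wild-type range, and the difference was 1.80 ± 0.43 (adjusted p = 0.329). A second Serpinf1 probe gave 4.67 ± 0.15 (SD, n = 6) in KO-l-BM and 4.58 ± 0.21 (SD, n = 5) in WT-l-BM cells. Ccdc117 was higher by 0.71 ± 0.18 (adjusted p = 0.495) and Ndrg2 by 0.42 ± 0.11 (adjusted p = 0.57). Wfdc17, a secreted protease inhibitor homologue, was higher by 1.44 ± 0.43, with 8.21 to 9.91 on KO-l-BM and 6.13 to 8.49 on WT-l-BM arrays. Emp1, a membrane protein of cell junctions, was higher by 1.48 ± 0.44, with 5.05 to 7.78 on KO-l-BM and 4.26 to 5.39 on WT-l-BM arrays. Sgip1, an endocytosis adaptor, was higher by 1.04 ± 0.31, Zcchc3 by 0.66 ± 0.18 and Taf5l, a subunit of histone acetyltransferase complexes, by 0.32 ± 0.09. The last 5 genes all had an adjusted p of 1.

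Apart from these, groups that did not overlap were few. In 45 genes (0.377%) every KO-l-BM array lay on the same side of every WT-l-BM array, 23 genes with KO-l-BM higher (0.193%) and 22 with KO-l-BM lower (0.184%). All 5 called genes were among them. The gap between the groups was widest for Mif (6.23), Atrnl1 (1.00) and 1190007I07Rik (0.76). Ndufa2, a small subunit of respiratory complex I, was also among the 45 genes. It measured 10.32 to 10.38 on KO-l-BM and 10.07 to 10.24 on WT-l-BM arrays, a difference of 0.17 ± 0.11. Groups of 6 and 5 arrays also separate by chance in some genes, so lack of overlap alone does not mark a gene as changed.

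Genes that lie next to Mif on chromosome 10 were not called. The 3 tested genes on each side were Gstt1, Gstt2 and Gstt3, glutathione transferases, Derl3, which acts in the disposal of misfolded proteins, Smarcb1, a core subunit of SWI/SNF chromatin remodelling complexes, and Chchd10, a mitochondrial protein. Their differences ran from 0.01 for Derl3, which turned to -0.12 under 75th percentile scaling, to 0.94 ± 0.56 for Chchd10, which measured 8.05 to 9.87 on KO-l-BM arrays and 6.86 to 9.65 on WT-l-BM arrays. All 6 groups of values overlapped, and Derl3 was detected on 1 array of each group. Of the 563 tested genes of chromosome 10, 2 were called, Mif and 1190007I07Rik, and 3 did not overlap between the groups. Over all genes tested 0.0419% were called and 0.377% did not overlap.

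No known partner of Mif was called. Cd74 ranged from 8.64 to 12.17 on KO-l-BM arrays and from 9.19 to 12.27 on WT-l-BM arrays, with a difference of -0.09 ± 0.70 (adjusted p = 1) that turned to 0.03 under 75th percentile scaling, reached 0.36 with single arrays left out and was -1.57 on the slide that held 3 arrays per group. Cd44 ranged from 9.91 to 10.17 in KO-l-BM and from 9.93 to 10.26 in WT-l-BM cells. Cxcr4 averaged 9.43 ± 0.15 (SD, n = 6) in KO-l-BM and 9.05 ± 0.48 (SD, n = 5) in WT-l-BM cells, and Cxcr2, which neutrophils carry, 6.76 in KO-l-BM and 6.31 in WT-l-BM cells. Ddt, the homologue of Mif that also binds Cd74, averaged 5.31 in KO-l-BM and 5.30 in WT-l-BM cells. Cops5, an intracellular partner of Mif, differed by 0.11 ± 0.15. Of the 7 measured members of this list Mif alone was called.

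The interferon response genes leaned lower in KO-l-BM cells as a list, with none called. Interferons signal from receptors at the cell surface to the nucleus, where the type I signal acts on the interferon-stimulated response element in the promoters of antiviral genes. Of 53 listed genes 50 were measured, and all 50 had a negative log2 difference, where 49.2% of all genes tested did. Their median difference was -0.49, against 0.00 for all genes. At an unadjusted p under 0.05, 6 of the 50 were lower, against 1.46% of all genes. A difference below -0.5 was seen in 24 of them and in 1.25% of all genes, and below -1 in 7 and 0.184%. The members share their regulators and were measured on the same arrays, so they are not independent of each other. In none of the 50 did the groups stand clear of each other.

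Oas1g, an enzyme that makes the 2-5A messenger that activates RNase L, had the lowest difference of the list. It measured 5.25, 7.70, 7.45, 8.20, 5.43 and 6.83 on KO-l-BM replicates 1 to 6, against 8.51, 8.69, 7.73, 8.76 and 8.20 on WT-l-BM replicates 1 to 5. KO-l-BM replicates 1 and 5 were far below the rest and KO-l-BM replicate 4 lay in the wild-type range, and the difference was -1.57 ± 0.57 (SE; adjusted p = 1). A second Oas1g probe gave 5.05 ± 0.71 (SD, n = 6) in KO-l-BM and 6.12 ± 0.40 (SD, n = 5) in WT-l-BM cells. Oasl1, a related protein that restrains translation of Irf7, ranged from 4.46 to 6.09 in KO-l-BM cells and from 5.60 to 6.57 in WT-l-BM cells, a difference of -0.78 ± 0.27. Dhx58, the RNA helicase LGP2, ranged from 6.90 to 8.37 in KO-l-BM cells and from 8.15 to 9.17 in WT-l-BM cells, a difference of -0.75 ± 0.30.

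The same arrays were low across the list. Ifit3, which blocks viral RNA, measured 4.68, 8.04, 9.01, 8.17, 5.48 and 6.55 on KO-l-BM replicates 1 to 6, against 7.13, 8.33, 9.69, 8.64 and 8.37 on WT-l-BM replicates 1 to 5. Irf7, the factor that amplifies interferon production, measured 5.47, 7.88, 7.65, 7.53, 5.47 and 6.67 on the KO-l-BM arrays and 7.71, 7.27, 8.98, 7.99 and 7.59 on the WT-l-BM arrays. Usp18, which removes Isg15 from proteins and limits interferon signalling, averaged 6.95 ± 1.56 (SD, n = 6) in KO-l-BM and 8.32 ± 0.25 (SD, n = 5) in WT-l-BM cells. In each of these genes KO-l-BM replicates 1 and 5 held the lowest values and replicate 6 also lay below every WT-l-BM array, while replicates 2, 3 and 4 lay within the wild-type range. Set against each gene's mean over the 11 arrays, all 50 genes were below it on KO-l-BM replicate 1, 46 on replicate 5 and 45 on replicate 6, but 9 on replicate 4. On the WT-l-BM arrays 7 to 24 genes were below it.

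**Figure D3:**
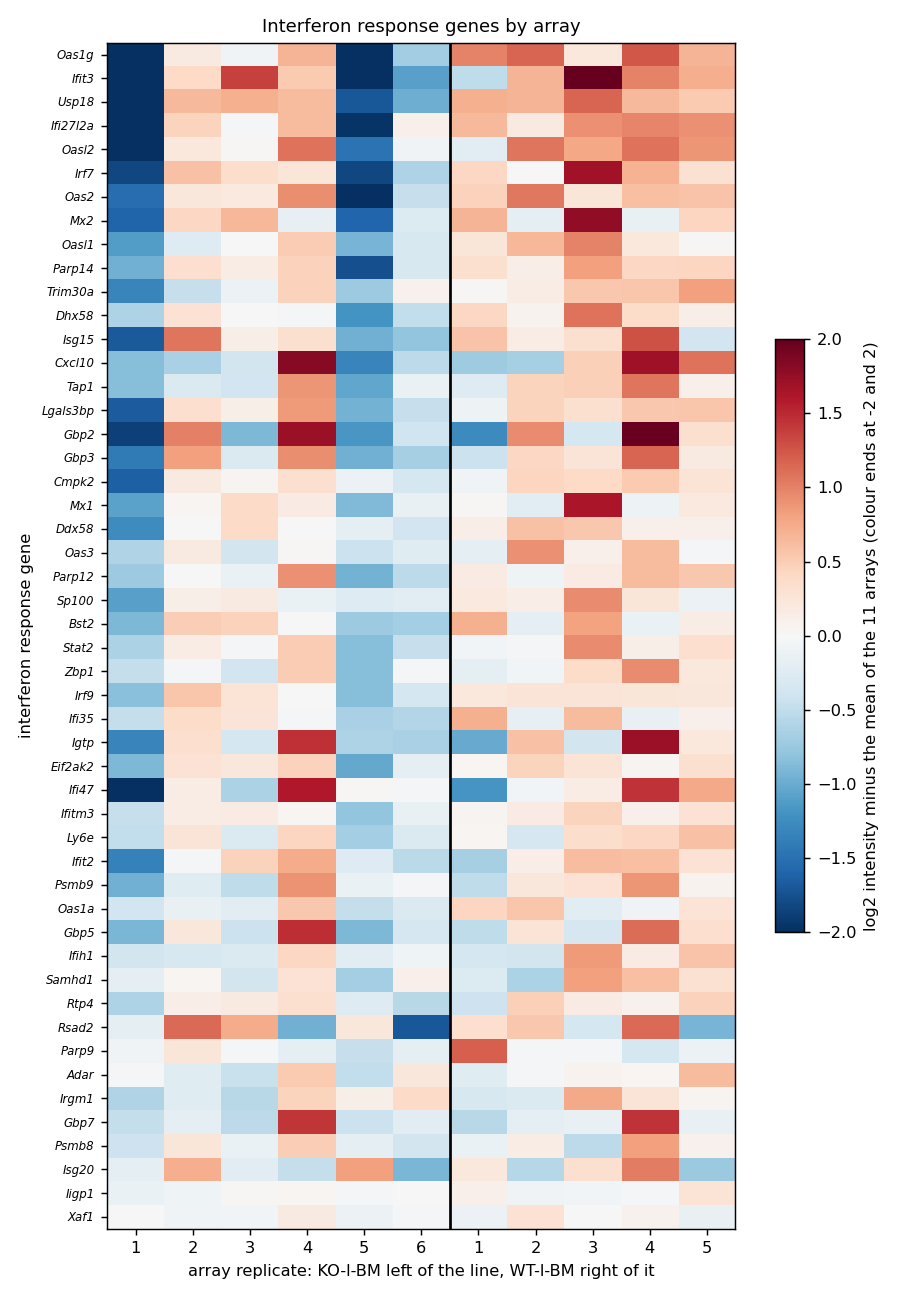
Log2 intensity of the 50 measured interferon response genes on the 11 arrays, minus each gene's mean over them (blue lower, red higher); columns are KO-l-BM replicates 1 to 6 left of the line and WT-l-BM replicates 1 to 5 right of it, and genes run down from the lowest difference. KO-l-BM replicates 1 and 5 are blue for nearly the whole list, while KO-l-BM replicate 4 is mostly red like the WT-l-BM arrays, so the groups overlap.

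The mean level of the 50 genes was 6.37, 7.64, 7.43, 7.94, 6.66 and 7.08 on KO-l-BM replicates 1 to 6, against 7.44, 7.65, 7.92, 8.04 and 7.72 on WT-l-BM replicates 1 to 5. The median difference of the list was -0.34 without KO-l-BM replicate 1 and -0.62 without KO-l-BM replicate 4, the ends of the range over single arrays left out, and -0.30 in the authors' log2 values. Within the slide with 3 arrays of each group it was -0.63, with 49 of 50 genes lower, whereas KO-l-BM replicate 2 minus WT-l-BM replicate 1, the pair on another slide, gave 0.11, with 17 genes lower. The list median was -0.35 in non-leukaemic marrow, -0.08 in leukaemic spleen and 0.22 in non-leukaemic spleen, with no member called in any of them. KO-l-BM replicate 5, low in this list, had the highest mean of the knockout arrays for neutrophil primary granule genes (10.62), and the part of that in the result was not tested.

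Promoters of these genes carried letters of the element that their shared regulators bind more often than promoters of all genes. The list was made of interferon response genes, so this follows from its choice and says nothing of Mif loss. The letters GAAANNGAAA, or TTTCNNTTTC on the other strand, where N is any base, were searched in the RefSeq promoter windows of assembly GRCm38.p6, which run from 250 bases before to 50 after each gene's start. They occur in 21 of 47 windows (44.7%) of the 38 listed genes that have one, against 1131 of 32851 windows (3.44%) of all genes. Oasl1 and Irf7 have a window without these letters, and Usp18 and Dhx58 have no window in the table. A match is a description of the letters and says nothing of binding. The windows of 4 genes with a match are shown because they carry the motif in different places and orientations; capitals mark the matches, which overlap in Oas1g, and each window reads 5′ to 3′ along the gene.
Oas1g, chr5:120887564-120887863, minus strand: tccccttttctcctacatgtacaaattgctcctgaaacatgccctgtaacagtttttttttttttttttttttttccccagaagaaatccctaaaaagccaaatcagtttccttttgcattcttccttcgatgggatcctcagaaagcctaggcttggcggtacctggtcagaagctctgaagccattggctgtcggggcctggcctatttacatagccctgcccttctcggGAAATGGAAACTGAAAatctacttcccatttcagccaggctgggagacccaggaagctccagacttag
Ifit3, chr19:34583279-34583578, plus strand: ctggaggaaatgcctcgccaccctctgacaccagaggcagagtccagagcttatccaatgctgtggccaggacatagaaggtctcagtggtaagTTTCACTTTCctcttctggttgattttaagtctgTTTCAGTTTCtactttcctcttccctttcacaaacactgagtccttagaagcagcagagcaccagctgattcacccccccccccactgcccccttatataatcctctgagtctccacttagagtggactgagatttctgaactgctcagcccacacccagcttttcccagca
Trim30a, chr7:104465144-104465443, minus strand: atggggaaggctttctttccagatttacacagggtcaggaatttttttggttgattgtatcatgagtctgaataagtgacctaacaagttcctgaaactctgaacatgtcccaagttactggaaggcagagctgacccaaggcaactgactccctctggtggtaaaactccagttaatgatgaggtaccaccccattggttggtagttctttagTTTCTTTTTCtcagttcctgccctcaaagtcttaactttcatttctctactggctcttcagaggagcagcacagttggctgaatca
Ddx58, chr4:40239776-40240075, minus strand: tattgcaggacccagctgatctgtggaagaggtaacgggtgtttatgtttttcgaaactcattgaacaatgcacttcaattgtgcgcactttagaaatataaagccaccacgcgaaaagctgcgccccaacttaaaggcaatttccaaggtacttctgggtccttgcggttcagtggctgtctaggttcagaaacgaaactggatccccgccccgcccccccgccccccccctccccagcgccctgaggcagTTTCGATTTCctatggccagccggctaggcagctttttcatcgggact
Oas1g and Ifit3 hold 2 matches each and Trim30a and Ddx58 1 each. Trim30a, which restrains Toll-like receptor signalling, differed by -0.76 ± 0.32 and Ddx58, the RNA sensor RIG-I, by -0.53 ± 0.27.

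No receptor or transducer of interferon was called. The 20 measured members had a median difference of -0.09, with none at an unadjusted p under 0.05. Ptpn6, the phosphatase Shp1 that damps cytokine signals, had the smallest p, at 10.59 ± 0.17 (SD, n = 6) in KO-l-BM and 10.88 ± 0.29 (SD, n = 5) in WT-l-BM cells. Irf3, which starts interferon production, differed by -0.16 ± 0.14, turning to 0.00093 under 75th percentile scaling, and Ifngr2, a chain of the interferon gamma receptor, by -0.45 ± 0.41.

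Inflammatory and chemokine genes showed no call. The 23 measured cytokine and NF-kB target genes had a median difference of -0.07. Among them Ier3, an early target of NF-kB, was higher by 0.78 ± 0.54, with KO-l-BM replicate 1 at 11.26 and the other KO-l-BM arrays between 7.52 and 8.91, against 7.29 to 8.98 on the WT-l-BM arrays. Nfkbie, an inhibitor of NF-kB, differed by -0.44 ± 0.32 and Tgfb1 by -0.36 ± 0.27. Tnf averaged 5.98 in KO-l-BM and 6.17 in WT-l-BM cells, and Il1b 8.68 in KO-l-BM and 8.57 in WT-l-BM cells. Of 18 measured chemokine genes none was called, with a median of 0.05; Ccl6, a myeloid chemokine, was higher by 0.62 ± 0.34, and Ccr2, the receptor that brings monocytes out of the marrow, was lower by a difference of -0.78 ± 0.68. Irak3, which holds back Toll-like receptor signals, was the one member of its 17-gene list with an unadjusted p under 0.05, at -0.77 ± 0.36 (adjusted p = 1); it measured 7.93, 7.96, 9.25, 7.69, 9.02 and 8.03 on KO-l-BM replicates 1 to 6, against 8.84, 9.50, 8.92, 8.87 and 9.26 on WT-l-BM replicates 1 to 5.

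No antigen presentation or lysosome gene was called. The 10 MHC class II genes had a median difference of -0.08, or -0.89 on the slide that held 3 arrays per group, and single arrays left out moved it between -0.44 and 0.17. H2-Ab1 spanned 8.61 to 12.24 on KO-l-BM and 9.37 to 12.28 on WT-l-BM arrays, so that the arrays of each group spread over more than the difference of -0.23 ± 0.67, which reached 0.23 without KO-l-BM replicate 5 and -1.63 on that slide. KO-l-BM replicate 5 and WT-l-BM replicate 2 were the lowest in their group for H2-Ab1 and for Cd74. The 22 lysosomal genes had a median of -0.05, with Hexa, a subunit of the enzyme that degrades gangliosides, at -0.42 ± 0.21.

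Neutrophil granule genes were higher on average in KO-l-BM cells, without a call. All 9 measured primary granule genes had a positive difference, where 50.8% of all genes did, with a median of 0.70. Elane, neutrophil elastase, measured 10.24, 9.70, 11.22, 10.55, 11.54 and 10.45 on KO-l-BM replicates 1 to 6, against 10.20, 11.69, 6.14, 9.70 and 9.68 on WT-l-BM replicates 1 to 5. WT-l-BM replicate 3 was far below every other array and WT-l-BM replicate 2 the highest of all, and the difference was 1.13 ± 0.90 (adjusted p = 1). Ms4a3, a marker of granulocyte and monocyte precursors, differed by 1.27 ± 0.87 and Gfi1, a factor that directs cells to the neutrophil line, by 0.96 ± 0.74. The list median was 0.30 without WT-l-BM replicate 3, 1.17 without WT-l-BM replicate 2 and 1.66 on the slide of WT-l-BM replicates 3 to 5.

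Of 19 secondary granule and later neutrophil genes 14 were higher, with a median of 0.45. The mean of the list was 9.89, 8.98, 9.82, 10.07, 11.09 and 10.19 on KO-l-BM replicates 1 to 6, against 8.42, 11.24, 8.84, 10.34 and 9.13 on WT-l-BM replicates 1 to 5. The highest array of all was a wild-type array, and the groups overlapped. S100a8, a calcium-binding protein of neutrophils, differed by 0.81 ± 0.66, Camp, the antimicrobial cathelicidin, by 1.00 ± 0.98, and Csf3r, the receptor for G-CSF, by -0.58 ± 0.33. The median was 0.04 without KO-l-BM replicate 5, 0.06 without WT-l-BM replicate 1 and 0.96 without WT-l-BM replicate 2. On the slide that held 3 arrays per group it was 1.10, with 16 of 19 genes higher. The median of the primary list was 1.37 in non-leukaemic marrow, -0.51 in leukaemic spleen and 0.97 in non-leukaemic spleen, and that of the secondary list 0.84, -0.29 and 1.27.

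Erythroid genes were also higher on average. All 20 measured members had a positive difference with a median of 0.55, and none was called. Car1, the carbonic anhydrase of red cell precursors, measured 7.83, 8.46, 8.11, 6.81, 10.32 and 4.84 on KO-l-BM replicates 1 to 6, against 7.73, 6.76, 4.29, 8.48 and 5.10 on WT-l-BM replicates 1 to 5. High and low arrays occurred in both groups, and the difference was 1.25 ± 0.98. The mean of the list ran from 6.60 to 9.32 on KO-l-BM arrays and from 6.59 to 9.01 on WT-l-BM arrays. Its median was 0.11 within the slide with 3 arrays of each group, with 12 genes higher and 8 lower, and ranged from 0.25 without KO-l-BM replicate 2 to 0.95 without WT-l-BM replicate 4. In the authors' log2 values it was 0.23. Hbb-b2, a beta globin, differed by 0.55 ± 0.42. In non-leukaemic marrow the list median was -0.64, with all 20 genes lower. It was 0.15 in leukaemic spleen and 0.60 in non-leukaemic spleen.

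Genes of DNA replication and mitosis were also higher on average, and WT-l-BM replicate 3 was the lowest array for both. Of 30 replication genes 29 were higher in KO-l-BM cells, with a median of 0.30 and none called. The mean of the list was 7.60, 8.01, 8.02, 8.15, 8.58 and 8.09 on KO-l-BM replicates 1 to 6, against 8.21, 8.14, 6.78, 8.06 and 7.68 on WT-l-BM replicates 1 to 5. WT-l-BM replicate 3 alone lay below all knockout arrays, and without it the median was 0.06, with 18 genes higher and 12 lower. On the slide of WT-l-BM replicates 3 to 5 it was 0.75, with 30 of 30 genes higher and 10 at an unadjusted p under 0.05 (limma). In that fit 51.4% of all genes were higher, and 1228 of 11937 had an unadjusted p under 0.05. Over all arrays Rfc3, a subunit of the clamp loader, was the one replication gene with an unadjusted p under 0.05, at 0.31 ± 0.14. Of 25 mitosis genes 20 were higher, with a median of 0.14, and without that array 5 were higher and 20 lower, with a median of -0.10; on the slide of WT-l-BM replicates 3 to 5 all 25 were higher, with a median of 0.46. Ncapg, a condensin subunit, differed by 0.42 ± 0.21 and Cdk1, the kinase that drives mitosis, by 0.30 ± 0.42. In leukaemic spleen the medians were negative, -0.26 for replication (1 gene higher, 29 lower) and -0.28 for mitosis (2 higher, 23 lower). They were 0.16 and 0.15 in non-leukaemic marrow and 0.52 and 0.63 in non-leukaemic spleen. The 20 p53 target genes had a median of -0.01.

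**Figure D4:**
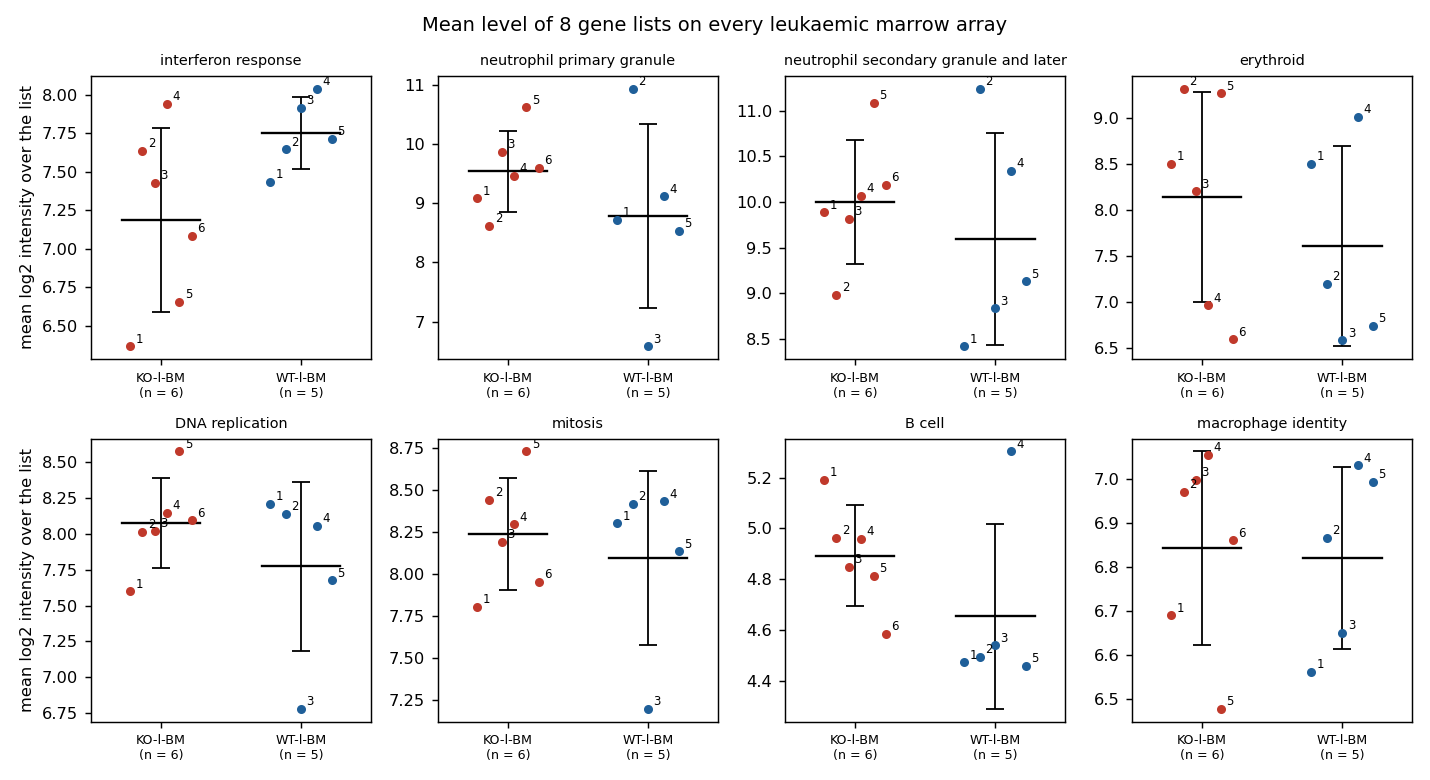
Mean normalised log2 intensity of 8 gene lists on each KO-l-BM array (red, left) and each WT-l-BM array (blue, right); digits are replicate numbers, horizontal lines means and bars SD. The groups overlap in all 8 lists, with KO-l-BM replicates 1 and 5 lowest for interferon response genes and WT-l-BM replicate 3 lowest for the primary granule, replication and mitosis lists.

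The neutrophil, erythroid and replication lists had positive medians while their groups overlapped, and their part in the called genes was not tested. The 13 B cell genes had a median difference of 0.08, with means of 4.59 to 5.19 on KO-l-BM arrays and 4.46 to 5.30 on WT-l-BM arrays, the highest being WT-l-BM replicate 4. Fcrla, a B cell Fc receptor-like protein, differed by 1.13 ± 0.56 and Pou2af1, a coactivator of B cell genes, by 0.80 ± 0.62. The 16 T and NK cell genes had a median of -0.09, or 0.11 with the slide as a block (11 higher and 5 lower). The 11 classical monocyte genes had -0.04, or -0.52 in the fit that held each array's Xist level, and the 6 eosinophil genes 0.07. Of 11 platelet genes, Treml1, a platelet receptor, was higher by 0.90 ± 0.33 (unadjusted p = 0.0126 and adjusted p = 1, limma), with KO-l-BM replicate 1 at 7.04 and all other arrays between 4.27 and 5.79.

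No metabolic gene was called. Of 17 cholesterol synthesis genes 12 were higher in KO-l-BM cells, with a median of 0.19 and none called. Stard4, which carries cholesterol between membranes, was higher by 0.42 ± 0.17, with 6.65 to 7.28 on KO-l-BM and 6.30 to 6.94 on WT-l-BM arrays, and Idi1, an isomerase of the pathway, by 0.22 ± 0.11; both had an unadjusted p under 0.05 and an adjusted p of 1. The mean of this list ran from 5.94 to 6.41 on KO-l-BM arrays and from 5.84 to 6.10 on WT-l-BM arrays. The 17 glycolysis and hypoxia genes had a median of 0.07, with Hif1a at -0.44 ± 0.28, and the 24 oxidative phosphorylation genes 0.03. Early response genes, which rise during handling of cells, had a median of 0.03 over 20 members, with Dusp1 at 0.44 ± 0.29 and Klf2 at -0.29 ± 0.24. Of 14 factors known to support leukaemic B cells 7 were higher and 7 lower, with Cxcl12, the chemokine that keeps B cells in the marrow niche, at 0.35 ± 0.26, or -0.28 on the slide that held 3 arrays per group, and Icam1, an adhesion molecule, at -0.34 ± 0.35.

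**Figure D5:**
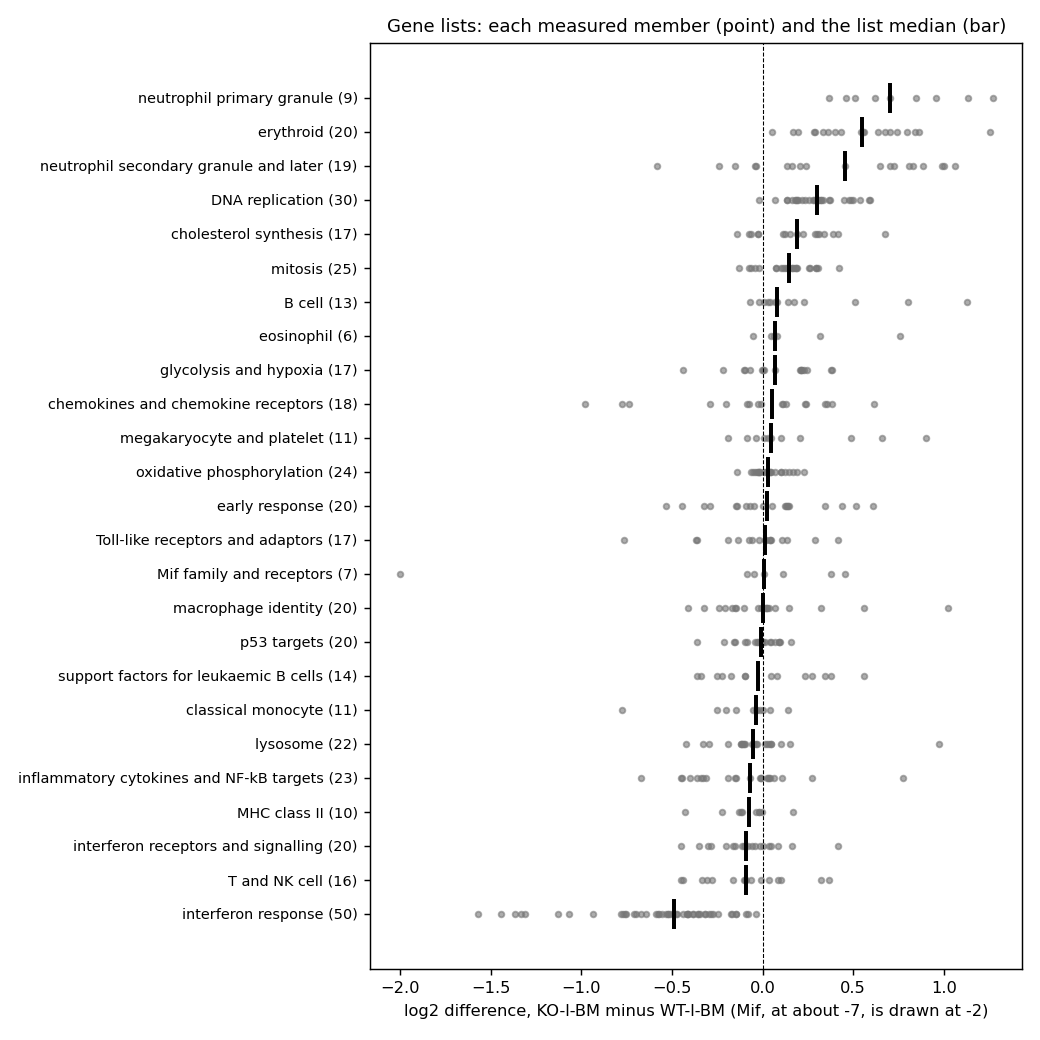
Log2 difference, KO-l-BM minus WT-l-BM, of every measured member (grey points) of 25 gene lists and the median of each list (black bars), with the number of members in brackets and lists ordered by median. The median lies lowest for the interferon response list at -0.49 and highest for the primary granule list at 0.70, and most of the other lists lie close to 0.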

How the data were processed

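Illumina bead arrays measured RNA of F4/80-sorted cells, 1 array per sample, 30 in all. The authors deposited intensities of 45281 probes with a p-value of detection beside each, and a log2 table made with Partek per the submitters' processing notes. Its normalisation and centring are not given in the sources used here, and each of its columns has a median of 6.41. From the deposited intensities, neqc (R 4.3.3, limma 3.58.1) corrected the background, with an offset of 16 and the detection p-values, and normalised by quantiles. Of these, 23515 probes passed a filter of detection p under 0.05 on 3 or more arrays, and the probe with the highest mean stood for each gene (11937 genes). Symbols came from the platform annotation, updated by gene ID through RefSeq (assembly GRCm38.p6) for 34807 probes; 34885 probes have 1 symbol, 18 several and 10378 none. One limma fit over all 8 groups gave each comparison, with Benjamini-Hochberg adjustment over all genes and a threshold of 0.05. The number of arrays limits the precision.

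The comparison and the gene lists were chosen with earlier results of these data known. The genes named are Mif, Adgre1 and Cd74, the called genes, the 8 uncalled genes with the smallest p each way that were detected on all arrays of the brighter group, the 3 members of each list with the smallest p, the 3 tested genes on each side of Mif and up to 4 called genes for each difference of effects; other list members were named after their values were seen. In simulated data with 200 of 11937 genes changed, the fit recovered 77% of the changes that were 2-fold and 99% of those that were 4-fold, and made 8 false calls. The simulated noise was independent between genes and held no shared array effects. With fewer genes changed the adjusted threshold is also stricter, so these shares do not carry over to the real data. Alternatives covered the authors' log2 values, background, scaling, filters, slides, the replicate number, array weights, all probes, only the 2 groups, each array left out and, chosen after seeing the data, the Xist value as a covariate. Some genes are not reported here.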

Additional observations from a re-analysis of the deposited data

Results flagged for a closer look

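Single arrays that lay far from the rest of their group were picked out by Dixon's test, which chance passes in about 1 in 20 groups. Of 252 groups of values examined, 24 were picked out, 10 of KO-l-BM and 14 of WT-l-BM arrays. WT-l-BM replicate 3 was the far array for Prg2 (8.44), Prf1 (10.42), Ndrg2 (4.55), Ndufa2 (10.07), Ndufa1 (10.24) and the mean of the mitosis genes (7.20). WT-l-BM replicate 4 was the highest of its group for the B cell genes Fcrla (7.43), Tnfrsf13c (5.27) and Pou2af1 (7.45), for the mean of the B cell genes (5.30), and for Rhd (4.74) and Derl3 (4.51). WT-l-BM replicate 2 was apart for Sgip1 (7.52) and H2-DMa (8.96). KO-l-BM replicate 5 was the highest of its group for the erythroid genes Hbb-b2 (7.70) and Rhd (5.52), for Orc1 (5.65), Ndufa1 (10.99) and the mean of the T and NK cell genes (6.39). KO-l-BM replicate 3 was apart for Trappc12 (4.34) and Ccr3 (4.74), replicate 1 for Ier3 (11.26), replicate 4 for Icam1 (8.80) and replicate 2 for Gstt1 (6.13).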

How the results depend on the processing

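The count of 5 called genes became 10 with the authors' log2 values, 3 without background correction, 3 with 75th percentile scaling, 3 with no filter, 3 with the strict filter, 3 within the slide with 3 arrays of each group, 3 with only the 2 compared groups and 1 with a replicate block, and ran from 3 to 8 with single arrays left out. The counts of 3 were not the same genes. With the strict filter they were Mif, Mtss1 and Manbal, and 1190007I07Rik and Atrnl1 were not tested. Within the slide they were Mif, 1190007I07Rik and Il6st, and in the other settings named here Mif, 1190007I07Rik and Atrnl1. 1190007I07Rik was detected on 14 of 14 wild-type and 1 of 16 knockout arrays, and Atrnl1 on 0 of 14 and 15 of 16. Each thus passed the main filter almost only through the genotype where it was high. Whether the replicate numbers pair samples is not labelled. Same-numbered arrays had correlations of deviations from their group means from -0.32 to 0.25, which are too few to decide it. Mif was called in all 24 alternatives, 1190007I07Rik in 22 of the 23 that tested it and Atrnl1 in 21 of 23; Mtss1 was lost in 16 of 24 and Manbal in 15 of 24. No gene had an effect that differed from non-leukaemic marrow, except 23 with array weights and 0 to 5 with single arrays left out; none differed from leukaemic spleen in any alternative. The sign of the difference turned with 75th percentile scaling for Adgre1 (0.022), Cd74 (0.029), Irf3 (0.00093), H2-DMb2 (0.038), Gla (-0.034), Il5ra (-0.11), Ccr3 (-0.096), Ndufb3 (0.022) and Derl3 (-0.12). It turned within the slide for Cxcl12 (-0.28), Il5ra (-0.0013), Ccr3 (-0.083), Cd8b1 (0.036), Gstt1 (-0.064) and Derl3 (-0.065), with array weights for Derl3 (-0.021), and for Ccr3 with the authors' values (-0.032) and with slide as a block (-0.054). The cause of these turns was not tested. With single arrays left out, the difference ran for Adgre1 from -0.47 to 0.13, for Cd74 from -0.53 to 0.36, for Derl3 from -0.030 to 0.073, for H2-Ab1 from -0.66 to 0.23, for H2-DMb2 from -0.41 to 0.073, for Irf8 from -0.49 to 0.020, for Prf1 from -0.58 to 0.14, for Prg2 from -0.036 to 1.03, for Rhd from -0.0048 to 0.30, for Smarcb1 from -0.0076 to 0.11 and for Ccr3 from -0.026 to 0.0998. Of 101 named genes, 74 kept their direction and their side of the threshold in every alternative.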
